A study of Mus musculus with 16 samples.

Results

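Glucose can be made anew in the kidney cortex, mainly in the proximal tubule, and the genes described here encode its dedicated enzymes and the transporter of its closing step. The members were chosen by name: every row of the gene count table whose symbol is Pck1, Pck2, Fbp1, Pcx, G6pc1 or Slc37a4. All 6 were found among 57186 genes, and all 6 were among the 25408 genes with at least 100 counts over the 16 libraries, which were tested. RNA from 16 kidneys of male mice was sequenced, 4 per group. All mice were homozygous for the Elmo1 H allele, a hypermorphic allele that raises Elmo1 expression, on a C57BL/6J background, so no group had normal Elmo1. ND_C and ND_B12 mice were non-diabetic (Ins2 +/+), while D_C and D_B12 mice carried Ins2 Akita/+, a mutation that misfolds proinsulin in the beta cell and causes insulin-deficient diabetes. ND_B12 and D_B12 mice drank water with vitamin B12 at 10 mg per kg body weight per day from 8 weeks of age, for 16 weeks by the sample labels and for 8 weeks by the study's methods, which give the age at collection as 16 weeks. ND_C and D_C mice were not supplemented.

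In the pathway, pyruvate carboxylase (Pcx) makes oxaloacetate from pyruvate in the mitochondrion, and phosphoenolpyruvate carboxykinase turns oxaloacetate into phosphoenolpyruvate, in the cytosol as Pck1 and in the mitochondrion as Pck2. Fructose-1,6-bisphosphatase (Fbp1) and the catalytic subunit of glucose-6-phosphatase (G6pc1) bypass the irreversible steps of glycolysis, and Slc37a4 carries glucose-6-phosphate into the endoplasmic reticulum, where G6pc1 cleaves it. The kidney feeds the pathway from lactate, glycerol and especially glutamine, whose breakdown also yields ammonia. Insulin is known to lower the expression of Pck1 and G6pc1, and acidosis is known to raise renal Pck1.

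The labels were checked before the groups were compared. For 181 genes, the libraries were matched to group means tabulated with the same data, over all 1820 sets of 4 libraries. The median absolute log2 difference from the tabulated means was 0.00018 to 0.00026 for the matched sets and 0.040 to 0.30 for the labelled groups. By that match 5 libraries fell into their labelled group and 11 into another. The diabetes status differed for 2 of the 11, ND_B12 4 (matched to diabetic) and D_C 1 (matched to non-diabetic). Of the 8 libraries labelled diabetic, 7 were matched to diabetic kidneys of the other treatment. The labelled groups also follow the dates in the library names, so group and date can be separated only in part. Groups below are those of the labels, library numbers are those within each labelled group, and the direction of any B12 difference rests on these labels. So does the treatment to which a difference between D_C and ND_C or between D_B12 and ND_B12 belongs, since D_C 2, D_C 3 and D_C 4 were matched to D_B12 and all 4 D_B12 libraries to D_C. Results on diabetes are given with all libraries and without ND_B12 4 and D_C 1. Without those 2, every diabetic library had a later date than every non-diabetic one. Diabetes and date therefore cannot be told apart in any difference between diabetic and non-diabetic kidneys in that setting. Totals ran from 65271308 to 91771136 counts per library, and the members took 0.502% to 0.979% of them.

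The promoters of Pck1 and G6pc1 are shown because their log2 fold changes in diabetic kidneys, averaged over treatments, had opposite signs. Neither passed by edgeR (Pck1 0.25, edgeR adjusted p = 0.465, and G6pc1 -0.34, edgeR adjusted p = 0.0748). Any link of the motifs to these values was not tested. The promoters of Pcx are shown because its transcript estimates were divided between separate starts. The 250 bases before each RefSeq start (promoter table of GRCm38.p6) were found for all 6 members, as 9 promoters, with G6pc1 under its older symbol G6pc, and each had 1 exact match on its chromosome in GRCm39. Printed below, 5′ to 3′ on the plus strand, is the stretch of each that precedes the start of the GENCODE transcript counted there. The Pck1 stretch is chr2:172994616-172994840, the distal Pcx stretch is chr19:4560250-4560484, the proximal Pcx stretch is chr19:4644097-4644346 and the G6pc1 stretch is chr11:101258292-101258368, all in GRCm39. Capitals mark matches, on either strand, to the letters TGACG (the core of the cyclic AMP response element, reading CGTCA on the other strand), GTTAAT (part of the HNF1 site) and CCAAT.
Pck1: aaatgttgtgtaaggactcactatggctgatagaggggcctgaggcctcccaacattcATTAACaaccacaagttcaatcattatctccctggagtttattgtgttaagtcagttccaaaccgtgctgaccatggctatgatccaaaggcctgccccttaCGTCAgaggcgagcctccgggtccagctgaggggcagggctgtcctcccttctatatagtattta
Pcx, distal start: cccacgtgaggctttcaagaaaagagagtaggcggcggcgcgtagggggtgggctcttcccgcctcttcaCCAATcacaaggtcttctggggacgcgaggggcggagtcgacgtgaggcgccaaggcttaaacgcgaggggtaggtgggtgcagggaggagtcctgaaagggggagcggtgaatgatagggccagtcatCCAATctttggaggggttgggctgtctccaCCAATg
Pcx, proximal start: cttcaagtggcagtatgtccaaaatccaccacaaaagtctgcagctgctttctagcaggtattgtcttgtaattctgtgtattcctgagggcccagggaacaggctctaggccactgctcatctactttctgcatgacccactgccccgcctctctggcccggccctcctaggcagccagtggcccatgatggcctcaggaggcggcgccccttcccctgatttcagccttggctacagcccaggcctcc
G6pc1: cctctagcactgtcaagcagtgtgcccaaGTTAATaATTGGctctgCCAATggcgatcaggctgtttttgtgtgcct

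In the Pck1 stretch, TGACG lay 90 to 86 bases and GTTAAT 192 to 187 bases before the RefSeq start. The distal Pcx stretch held CCAAT 3 times, and the proximal stretch held none of the 6 motifs searched. The G6pc1 stretch held GTTAAT once and CCAAT on both strands, and TATAAA lay 29 to 24 bases before the RefSeq start of G6pc1, beyond the stretch shown. Of 32851 RefSeq promoters, 17.8% held TGACG in their 250 bases, 6.43% held GTTAAT, 33.8% held CCAAT and 12.4% held TATAAA. The whole element TGACGTCA, which contains TGACG, was in 1.55% and the forkhead letters TGTTTAC were in 3.17%, and neither was in a member's promoter.

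Per unit of transcript length, cytosolic Pck1 stood far above mitochondrial Pck2 in all 16 libraries. Levels between genes are given as TPM, transcript counts scaled by length and by library total, computed from the deposited transcript counts and GENCODE lengths. Pck1 had a median of 2153 TPM over the 16 libraries, rank 34 of all genes by mean level. Fbp1 followed with a median of 911 TPM, then G6pc1 with 299 TPM, Pcx with 264 TPM and Slc37a4 with 177 TPM. Pck2, the mitochondrial enzyme, was at 5.87 TPM. The ranges of Fbp1 (757 to 1185 TPM) and Pck1 (1663 to 4582 TPM) did not overlap, while those of G6pc1 (222 to 434 TPM) and Pcx (242 to 328 TPM) did, so the order of those neighbours is not fixed beyond their spread. Among the related genes, G6pc3, the widely expressed glucose-6-phosphatase, had a median of 47.4 TPM, and Fbp2, the muscle form of the bisphosphatase, had 6.54 TPM. G6pc2, the islet form, had 0.0545 TPM and was under the count minimum.

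Pck1, the enzyme usually taken as the pace-setter of the pathway, lies on chromosome 2 at 172994744-173001066 (GRCm39, plus strand). Its normalized counts, in order of library number, were 235049, 225322, 252335 and 320062 in ND_C and 259374, 598731, 316038 and 274216 in D_C. In the B12 groups they were 239644, 290453, 280648 and 385202 in ND_B12 and 257205, 305737, 397788 and 240816 in D_B12. The groups overlapped throughout, and D_C 2 stood far above every other library. In D_C the level was 1.40 times that in ND_C, a log2 fold change of 0.49 ± 0.24 (SE), which did not pass the test (edgeR adjusted p = 0.296). Without D_C 2 the log2 fold change was 0.13 (edgeR adjusted p = 0.771), and without ND_B12 4 and D_C 1 it was 0.62 ± 0.24 (edgeR adjusted p = 0.12). Averaged over treatments, the log2 fold change of diabetic over non-diabetic kidneys was 0.25 ± 0.17 with all libraries, 0.39 ± 0.17 without those 2 and 0.07 without D_C 2. None of these passed.

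**Figure D1:**
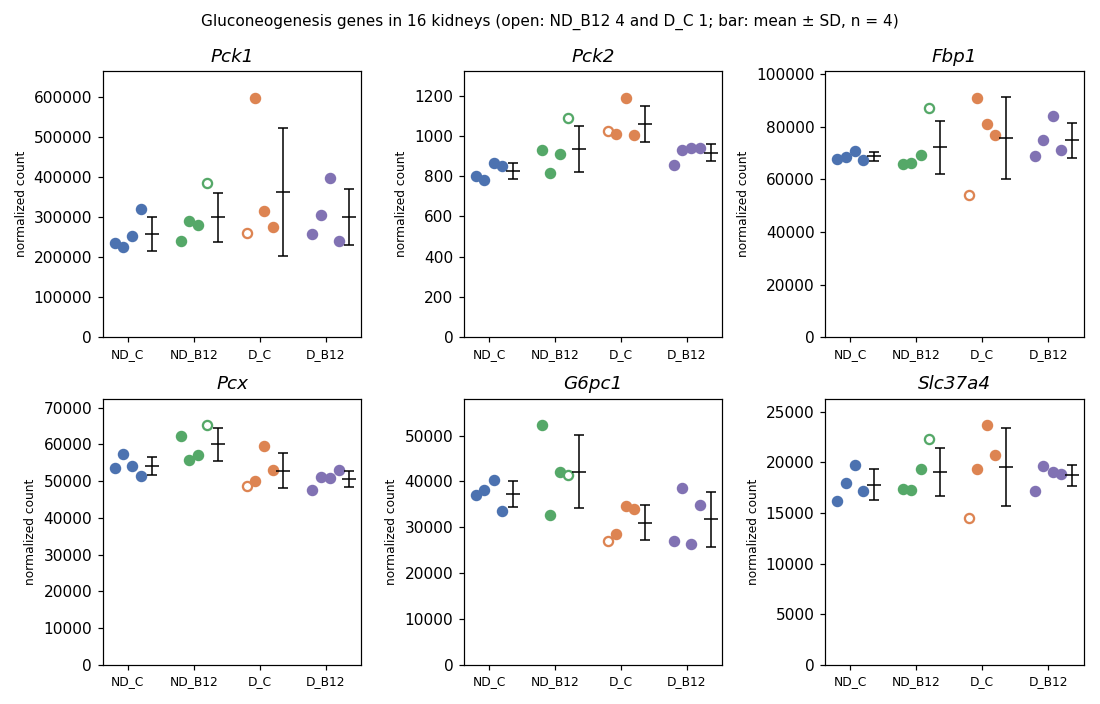
Normalized counts of the 6 members (y axis, from 0) in each of 16 kidneys by labelled group (x axis), with the mean ± SD of each group (n = 4) as a bar and ND_B12 4 and D_C 1 as open points. D_C 2 is the highest point for Pck1, at 598731, and the D_C points of Pck2 all lie above those of ND_C.

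Pck2, the mitochondrial carboxykinase, lies on chromosome 14 at 55777542-55788758 (plus strand), where a long noncoding gene, Gm10876, overlaps it on the other strand. It rose in D_C against ND_C. Its normalized counts were 799, 779, 863 and 852 in ND_C and 1026, 1011, 1190 and 1006 in D_C, and these groups did not overlap. In the B12 groups they were 927, 815, 909 and 1087 in ND_B12 and 853, 929, 939 and 940 in D_B12. The difference of D_C from ND_C was 1.29-fold (log2 fold change 0.36 ± 0.09, edgeR adjusted p = 0.0474). Pck2 was the only member of the 6 called there. Over all genes tested 1.66% were called in that comparison. The call sat at the threshold. It was lost, with the same direction, without any single ND_C library, without D_C 2, D_C 3 or D_C 4, and with some B12 libraries left out, at adjusted p from 0.0533 to 0.144. It was also lost with the replicate block (edgeR adjusted p = 0.0515), with the compared groups alone (0.0733), with no filter beyond 1 count (0.0763) and with date as a covariate (log2 fold change 0.26, edgeR adjusted p = 0.457). It was kept without ND_B12 4 and D_C 1 (log2 fold change 0.37 ± 0.08, edgeR adjusted p = 0.0135). DESeq2 also called Pck2 alone of the members in that comparison, where it called 6.44% of all genes.

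Between the B12-treated groups, Pck2 differed by a log2 fold change of -0.03 ± 0.09 (edgeR adjusted p = 0.888). The test of the difference between these diabetes effects gave -0.40 ± 0.12 on the log2 scale, which did not pass (edgeR adjusted p = 0.136). D_B12 lay below D_C in all 4 libraries, with a log2 fold change of -0.21 ± 0.09 (edgeR adjusted p = 0.299). Of the reads assigned to Pck2, transcript estimates were split over 12 of its 13 counted transcripts, so no isoform is described. The study's methods give spliced reads a strand from their intron motifs, and a library strand setting is not given in the sources used here, so for unspliced reads it is not known here which of the overlapping genes they came from.

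Fbp1 lies on chromosome 13 at 63012567-63036263 (minus strand), with no overlapping gene. Its normalized counts were 67949, 68564, 71012 and 67519 in ND_C and 54093, 91176, 81032 and 76919 in D_C. In the B12 groups they were 65897, 66189, 69374 and 87342 in ND_B12 and 68989, 74987, 84211 and 71217 in D_B12. Within D_C the labelled library D_C 1 was the lowest of all 16, and within ND_B12 the library ND_B12 4 was the highest non-diabetic one. With all libraries the log2 fold change of D_C over ND_C was 0.14 ± 0.13 (edgeR adjusted p = 0.62). With ND_B12 4 and D_C 1 left out, Fbp1 rose in diabetic kidneys, by 0.27 ± 0.07 in D_C over ND_C (edgeR adjusted p = 0.0352) and by 0.21 ± 0.05 averaged over treatments (edgeR adjusted p = 0.0178). In that setting 6 of the 7 diabetic libraries lay above all 7 non-diabetic ones, and all 7 diabetic libraries had later dates. With all libraries and date as a covariate, Fbp1 was -0.0094 in D_C over ND_C and -0.12 in the average.

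Without these 2 libraries (the 14-library setting) the calls among members came to 2 of 6 in D_C over ND_C (Pck2 and Fbp1), where 8.57% of all genes tested were called. They were again Pck2 and Fbp1 in the average over treatments, where 10.2% were called, and Pck2 rose there by 0.21 ± 0.06 (edgeR adjusted p = 0.0281). In D_B12 over ND_B12, 0 of 6 were called and 2.8% of all genes. By unadjusted p under 0.05, 5 of the 6 members passed in the average over treatments, where 24.8% of all genes did.

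Pcx, which opens the route from pyruvate, lies on chromosome 19 at 4559902-4672189 (plus strand), with Lrfn4 and Rce1 on the other strand. Its normalized counts were 53690, 57301, 54043 and 51275 in ND_C and 48763, 50084, 59526 and 53069 in D_C, which overlapped. They were 62350, 55615, 57010 and 65193 in ND_B12 and 47532, 50988, 50732 and 53075 in D_B12, and there every diabetic library lay below every non-diabetic one. The log2 fold change was -0.03 ± 0.07 in D_C over ND_C (edgeR adjusted p = 0.863) and -0.25 ± 0.07 in D_B12 over ND_B12 (edgeR adjusted p = 0.0974). DESeq2 called the latter (adjusted p = 0.0229), as the only member, in a comparison where it called 4.68% of all genes and edgeR 0.823%. In the 14-library setting it was -0.20 ± 0.07 (edgeR adjusted p = 0.124). The test of the difference between these effects gave -0.22 ± 0.10 (edgeR adjusted p = 0.306).

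G6pc1, which releases free glucose, lies on chromosome 11 at 101258369-101268729 (plus strand), with no overlapping gene. Its normalized counts were 36990, 38190, 40378 and 33451 in ND_C and 27063, 28519, 34625 and 33908 in D_C. They were 52233, 32681, 42121 and 41463 in ND_B12 and 27017, 38660, 26401 and 34949 in D_B12. The diabetic libraries were mostly the lower ones, with overlap in both treatments. Averaged over treatments the level was 0.792 times that of non-diabetic kidneys, a log2 fold change of -0.34 ± 0.10, which did not pass (edgeR adjusted p = 0.0748). Here edgeR called 3.02% of all genes and 0 of 6 members, with 3 members at an unadjusted p under 0.05. DESeq2 called G6pc1 (adjusted p = 0.0184), in a comparison where it called 7.23%. The log2 fold change was -0.26 ± 0.14 in D_C over ND_C, -0.41 ± 0.14 in D_B12 over ND_B12 and -0.31 ± 0.11 in the average without ND_B12 4 and D_C 1 (edgeR adjusted p = 0.0885). Leaving out single libraries moved the average between -0.39 and -0.28, and edgeR called it without D_B12 2 (adjusted p = 0.0495).

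Slc37a4, the glucose-6-phosphate translocase that supplies G6pc1, lies on chromosome 9 at 44308144-44314265 (plus strand), with Trappc4 on the other strand. Its normalized counts were 16195, 18018, 19789 and 17226 in ND_C and 14472, 19361, 23676 and 20780 in D_C. They were 17372, 17244, 19311 and 22356 in ND_B12 and 17176, 19678, 19092 and 18907 in D_B12. The groups overlapped, with D_C 1 lowest and D_C 3 highest of all. The log2 fold change averaged over treatments was 0.05 ± 0.09 (edgeR adjusted p = 0.794), and 0.16 ± 0.06 without ND_B12 4 and D_C 1 (edgeR adjusted p = 0.103).

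**Figure D2:**
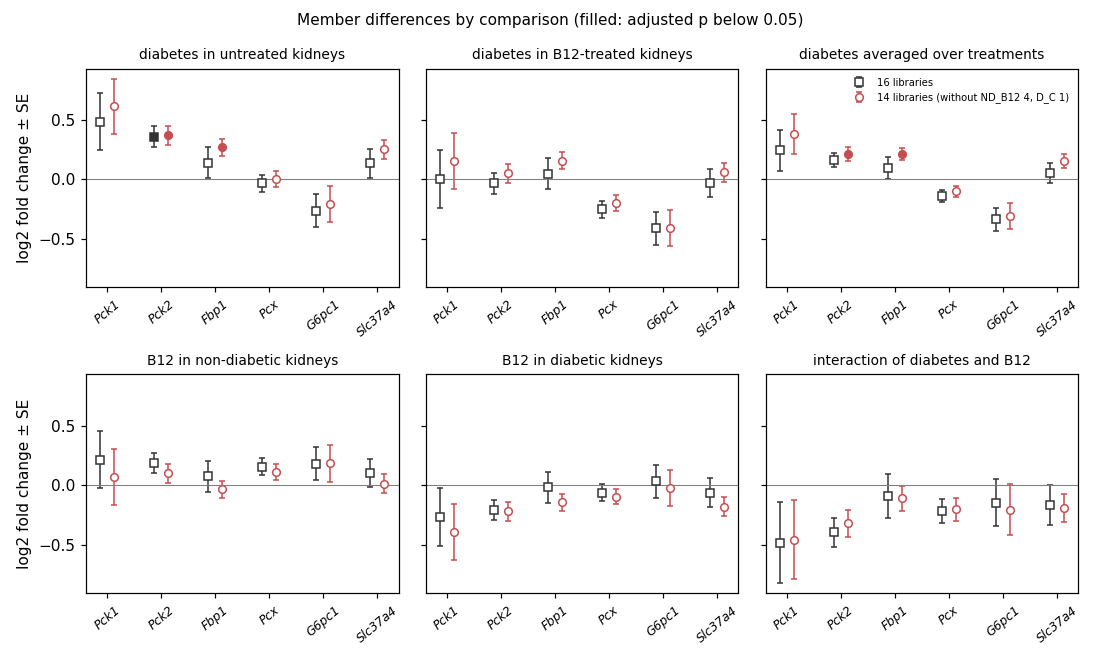
Log2 fold changes ± SE of the 6 members (x axis) in each of 6 comparisons (panels), from all 16 libraries (squares) and from 14 libraries without ND_B12 4 and D_C 1 (circles), filled where the edgeR adjusted p was below 0.05. In the average over treatments Pck1, Pck2 and Fbp1 lie above 0 while Pcx and G6pc1 lie below it. The only filled symbols there are the 14-library circles of Pck2 and Fbp1, and no square is filled.

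The ratio of the catalytic subunit to its transporter was examined after the values had been seen, out of 15 possible pairs of members, so it is described without a test. On the log2 scale of normalized counts, G6pc1 over Slc37a4 was 1.19, 1.08, 1.03 and 0.96 in ND_C and 0.90, 0.56, 0.55 and 0.71 in D_C, with no overlap. It was 1.59, 0.92, 1.13 and 0.89 in ND_B12 and 0.65, 0.97, 0.47 and 0.89 in D_B12, which overlapped. Over both treatments the mean was 1.10 ± 0.22 (SD, n = 8) in non-diabetic and 0.71 ± 0.19 (SD, n = 8) in diabetic kidneys, a difference of -0.39, and -0.44 without ND_B12 4 and D_C 1. The difference was -0.39 in untreated and -0.39 in B12-treated kidneys. Pck1 over Pcx, examined in the same way, had a mean difference of 0.35 between diabetic and non-diabetic kidneys.

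Vitamin B12 gave no call among the members. In ND_B12 against ND_C, 0 of 6 were called and 0.0% of all genes by edgeR, with 2 members (Pck2 and Pcx) and 1937 genes at an unadjusted p under 0.05, and DESeq2 called 6 genes (0.0236%) and no member. In D_B12 against D_C, 0 of 6 were called and 0.0% of all genes by edgeR, with 1 member (Pck2) and 3468 genes at an unadjusted p under 0.05, and DESeq2 called 670 genes (2.64%) and no member. All 6 members had a positive log2 fold change in ND_B12 over ND_C, with a median of 0.17 against 0.00 over all genes, and 5 of the 6 a negative one in D_B12 over D_C, with a median of -0.063. Without ND_B12 4 and D_C 1 the medians were 0.084 and -0.16. There 5 of the 6 members were positive in ND_B12 over ND_C, with Fbp1 at -0.034. All 6 were negative in D_B12 over D_C, with G6pc1 at -0.021. In that setting edgeR called 216 genes (0.87%) in D_B12 over D_C, 87 (0.35%) in the test of the difference and 0 in ND_B12 over ND_C, with no member among them. These comparisons and those of diabetes share the D_C and ND_C libraries, so their values are given side by side only. In the test of the difference between the diabetes effects with and without B12, 0 of 6 members and 0.0% of all genes were called by edgeR, with 4093 genes at an unadjusted p under 0.05, 2 of them members, and DESeq2 called 943 genes (3.71%) and no member.

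Counted by overlap of the groups of 4, 1 member (Pck2) did not overlap between D_C and ND_C, where 9.44% of all genes did not, and 1 (Pcx) between D_B12 and ND_B12, where 11.7% did not. Between D_B12 and D_C it was 1 (Pck2) against 6.58% of all genes, and between ND_B12 and ND_C 0 against 4.81%. The exact permutation test of mean log2 CPM (counts scaled to the library total) gave its smallest possible p for 4 against 4, 0.0286, in these 3 cases, and 0.229 after adjustment over 24 tests. Over both treatments without ND_B12 4 and D_C 1, no member had non-overlapping groups of 7, which 2.72% of all genes had.

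Before group or date means were removed, the members did not vary as 1 block over the 16 kidneys. Of 15 pairs, 3 had a Pearson r that passed the permutation test after Benjamini-Hochberg adjustment. The share of other gene pairs that would pass was not computed, so the count does not set the members apart. Fbp1 and Slc37a4 had r = 0.80 (permutation p = 0.00026, adjusted 0.0033) and Spearman's rho = 0.82 (permutation p = 0.00013, adjusted 0.00195), and r was 0.81 without the 2 libraries farthest from the median of Fbp1. Pcx and G6pc1 had r = 0.77 (permutation p = 0.00044, adjusted 0.0033) and rho = 0.75 (permutation p = 0.00124, adjusted 0.0093), and r was 0.68 without the 2 farthest. Pck1 and Fbp1 had r = 0.75 (permutation p = 0.00081, adjusted 0.00405), while rho = 0.63 missed the threshold (adjusted 0.0511), and r was 0.59 without the 2 farthest. After each group's mean was removed the 3 values of r were 0.80, 0.62 and 0.75. Among the other pairs r then ran from -0.33 for Pck1 and G6pc1 to 0.71 for Pcx and Slc37a4. Pck1 and G6pc1 had r = -0.36 (permutation p = 0.165, adjusted 0.276), and 0.01 without the 2 farthest, so that relation rests on those libraries. For the 10 libraries that shared a date with another, on 4 dates, each date's mean was removed. Then r was 0.96 for Fbp1 and Slc37a4, 0.84 for Pcx and G6pc1 and 0.80 for Pck1 and Fbp1. Among the other pairs it ran from 0.07 for Pck1 and G6pc1 to 0.79 for Pcx and Slc37a4. The 10 libraries included ND_B12 4 and D_C 1, which shared a date with ND_B12 2 and ND_B12 3. On that date ND_B12 4 had the highest and D_C 1 the lowest normalized count of Fbp1, Slc37a4, Pck1 and Pcx. The values of r within dates rest in part on those 2 libraries and were not computed without them.

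**Figure D3:**
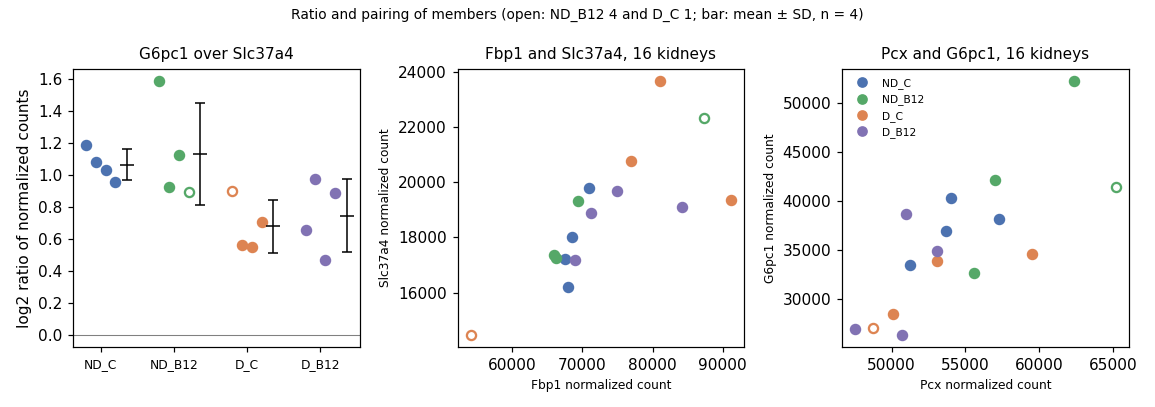
Left, log2 ratio of G6pc1 to Slc37a4 normalized counts in each kidney by labelled group, with mean ± SD (n = 4) as bars. Middle and right, normalized counts of Fbp1 against Slc37a4 and of Pcx against G6pc1, 1 point per kidney, with axes that do not start at 0, and with ND_B12 4 and D_C 1 open. Both pairs rise together (r = 0.80 and 0.77), and the D_C ratios lie between 0.55 and 0.90, below all ND_C ratios.

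The genes whose log2 CPM followed each member most closely over the 16 libraries were searched among 11475 genes. These values of r are the highest of many and carry no test. For Pck1 they were Acot3 (r = 0.94), a peroxisomal acyl-CoA thioesterase, Uroc1 (0.94), the urocanate hydratase of histidine breakdown, and Cbr1 (0.93), a carbonyl reductase, and all had their highest count in D_C 2. For Fbp1 they included Cryl1 (0.98), a dehydrogenase of L-gulonate, and Rragd (0.94), a GTPase of nutrient signalling, both again highest in D_C 2. Pcx was nearest to Myo7b (0.91), a brush border myosin, Tsfm (0.90), a mitochondrial translation factor, and Eif4ebp2 (0.89), a translation repressor. G6pc1 was nearest to Pnp and Pnp2 (0.91 each), purine nucleoside phosphorylases that are near-identical copies and may share reads, and to Gid4 (0.89), the substrate receptor of a ubiquitin ligase. Slc37a4 was nearest to Aprt (0.91), an adenine salvage enzyme, Ccdc85c (0.91) and Ndufs1 (0.91), a subunit of respiratory complex I. Pck2 was nearest to Notch4 (0.89), Psmd9 (0.87) and Pik3ip1 (0.85), and its r fell to 0.70, 0.75 and 0.69 once group means were removed.

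Around the members, a list of 9 genes that bring glutamine and amino acid carbon into the pathway includes glutamate dehydrogenase (Glud1), the glutamine transporter Slc38a3 and transaminases. Averaged over treatments, all 9 had a positive log2 fold change, with a median of 0.19 against 0.01 over all genes, and 1 was called (3.02% of all genes were). In 14 libraries, without ND_B12 4 and D_C 1, 7 of 9 were called, all higher, with a median of 0.30 (10.2% of all genes were called), so the count rests on leaving those 2 out. Slc38a3 counts ran from 6321 to 11310 with a median of 6918 in 8 non-diabetic kidneys, and from 5506 to 34449 with a median of 16142 in 8 diabetic ones. It rose by 1.10 on the log2 scale (edgeR adjusted p = 0.0378). The lowest diabetic library was D_C 1, and without the 2 libraries the ranges were 6321 to 11310 and 13514 to 34449, which did not overlap, with a log2 fold change of 1.34 (edgeR adjusted p = 0.00128). In the same setting Glud1 rose by 0.60. Its range was 44073 to 54912 in non-diabetic and 57956 to 106957 in diabetic kidneys, again without overlap. Of the 9 genes, 3 had no overlap in that setting, as had 2.72% of all genes. Every diabetic library there had a later date than every non-diabetic one.

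Glycerol carbon enters through Gk, Gpd1, Gpd2 and Aqp7. Averaged over treatments, 1 of these 4 was called, the mitochondrial glycerol-3-phosphate dehydrogenase Gpd2, which rose by 0.47 (edgeR adjusted p = 0.0357), and 2 without ND_B12 4 and D_C 1, with Gpd2 at 0.59. In that average 3.02% of all genes were called with all libraries and 10.2% without those 2 libraries, also for the lists that follow. For lactate and pyruvate, 0 of 8 genes were called with all libraries, and 2 of 8 without those 2, the monocarboxylate transporters Slc16a1 (0.81, edgeR adjusted p = 0.0257) and Slc5a8 (0.30, edgeR adjusted p = 0.0372). Slc16a1 counts ran from 2269 to 5641 in 7 non-diabetic and from 3900 to 10193 in 7 diabetic kidneys. Of 7 genes of the malate and aspartate shuttles, 0 were called in either setting. The shared reversible steps between phosphoenolpyruvate and glucose-6-phosphate had 0 of 7 called with all libraries and 4 of 7 without the 2, all higher, among them the enolase Eno1 (0.66).

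A list of opposing steps holds the hexokinases, phosphofructokinases and pyruvate kinases of glycolysis. It also holds the Pfkfb enzymes, which set the level of a regulator of phosphofructokinase, and kinases of pyruvate dehydrogenase (Pdk2 and Pdk4). These added genes are not themselves steps of glycolysis, so the counts and median of the list are not of opposing steps alone. In D_C over ND_C with all libraries, 3 of its 12 tested genes were called (1.66% of all genes were), all higher: hexokinase 1 (Hk1, 0.50, edgeR adjusted p = 0.0246), the liver-type phosphofructokinase Pfkl (0.51, edgeR adjusted p = 0.038) and the pyruvate kinase Pkm (0.57, edgeR adjusted p = 0.0429). The median of the list was 0.40. In D_B12 over ND_B12, 0 of 12 were called (0.823% of all genes were), with Hk1 at -0.19, Pfkl at 0.053 and Pkm at 0.13. The test of the difference gave -0.69 for Hk1 (edgeR adjusted p = 0.0554). Without ND_B12 4 and D_C 1 it gave -0.76 for Hk1, which passed (edgeR adjusted p = 0.0393, 0.35% of all genes called). Pfkl and Pkm did not pass it (edgeR adjusted p = 0.0676 and 0.0583). In D_B12 over D_C in that setting, Hk1, Pfkl and Pkm were called lower (0.87% of all genes were called). Hk1 was at -0.54 (edgeR adjusted p = 0.0152), Pfkl at -0.41 (0.0369) and Pkm at -0.48 (0.0256). With all libraries these genes did not pass there (edgeR adjusted p = 0.0742, 0.226 and 0.26). In the average over treatments, 0 of 12 were called with all libraries (3.02% of all genes were). Without ND_B12 4 and D_C 1, 5 of 12 were called, all higher (10.2% of all genes were called). The largest was the liver and kidney pyruvate kinase Pklr (0.76, edgeR adjusted p = 0.000693). Its counts ran from 2496 to 3081 in 7 non-diabetic and from 3950 to 6503 in 7 diabetic kidneys.

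**Figure D4:**
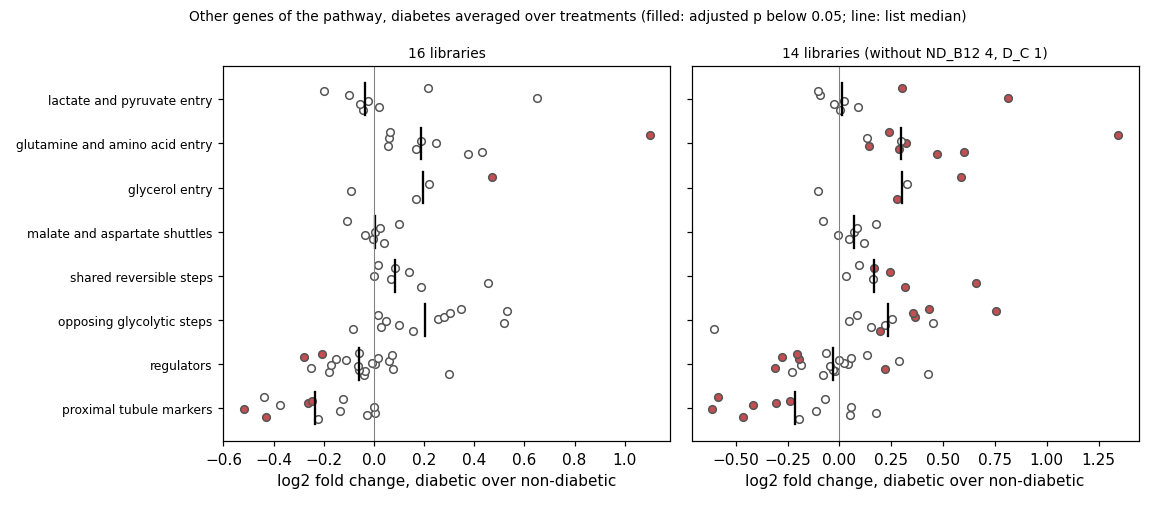
Log2 fold change of diabetic over non-diabetic kidneys, averaged over treatments (x axis), for the tested genes of 8 lists (rows), from 16 libraries (left) and from 14 libraries (right, another x range). Each point is a gene, filled where the edgeR adjusted p was below 0.05, and the line is the list median. Filled points among the glutamine genes number 1 on the left and 7 on the right, all above 0, and those among proximal tubule markers lie below 0.

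Of 19 regulators, 2 were called in the average over treatments (3.02% of all genes were), both lower. These were the fatty acid sensor Ppara (-0.28, edgeR adjusted p = 0.0346) and the parathyroid hormone receptor Pth1r (-0.21, edgeR adjusted p = 0.0375). By treatment, Ppara was 0.090 in D_C over ND_C (edgeR adjusted p = 0.668) and fell by 0.65 in D_B12 over ND_B12 (edgeR adjusted p = 0.0169), and the test of the difference gave -0.74 (edgeR adjusted p = 0.0554). Pth1r was -0.30 in D_C over ND_C (edgeR adjusted p = 0.0485) and -0.12 in D_B12 over ND_B12 (edgeR adjusted p = 0.409). In the average of the 14-library setting 5 were called, 1 higher and 4 lower (10.2% of all genes were called). Foxo1, Crtc2, Creb1, Hnf4a and the coactivator Ppargc1a, which act on the promoters of Pck1 and G6pc1, did not pass in the average in either setting. With all libraries Ppargc1a was at 0.07 and Hnf4a at -0.17. In D_C over ND_C without ND_B12 4 and D_C 1, 8.57% of all genes were called. There the forkhead gene Foxo3 was higher (0.41, edgeR adjusted p = 0.0141) and Pth1r lower (-0.30, edgeR adjusted p = 0.0332). With all libraries Foxo3 was at 0.28 (edgeR adjusted p = 0.322).

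Some markers of the proximal tubule, the main site of the pathway in kidney, were lower in diabetic kidneys. Averaged over treatments, 4 of 12 were called (3.02% of all genes were), all lower, with a list median of -0.23. These were Slc34a1, the phosphate transporter (-0.25), the fatty acid ligase Slc27a2 (-0.26), myo-inositol oxygenase (Miox, -0.52) and argininosuccinate synthase (Ass1, -0.43). The summed counts of all 12 markers ran from 1830702 to 2068820 in the 8 non-diabetic and from 1574893 to 1861305 in the 8 diabetic libraries. In whole kidney, fewer cells of a type and less RNA per cell cannot be told apart, and the part of this shift in the members' values was not tested. Of 8 markers of other nephron segments, 1 was called with all libraries in D_C over ND_C, the collecting duct water channel Aqp2, which rose by 1.69 (edgeR adjusted p = 0.0436) and by 1.91 without ND_B12 4 and D_C 1 (edgeR adjusted p = 0.00531). Slc12a1, the salt carrier of the thick ascending limb, was at 0.41 there (edgeR adjusted p = 0.158) and rose by 0.52 without the 2 (edgeR adjusted p = 0.0259). In that setting 3 of the 8 were called, 2 higher and 1 lower, the lower one being the distal tubule carrier Slc12a3. Of all genes, 1.66% were called in D_C over ND_C with all libraries and 8.57% without the 2. The 8 summed to between 316196 and 370398 in ND_C and between 320254 and 391661 in D_C, which overlapped, and the part of these genes in the differences of Hk1, Pfkl and Pkm was not tested. Beside Pck1, which adipocytes also express, the 6 adipocyte markers summed to between 259 and 6207, and to 506 in D_C 2. Adipoq, Plin1, Lep and Retn were at 0 in at least 1 library. The 6 tested hepatocyte markers summed to between 6818 and 13149, and Cyp7a1 was under the count minimum.

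Transcript estimates showed which models the members' counts were assigned to. Of Pck1 counts, 78.4% to 81.0% went to Pck1-202, a model annotated as retained intron, and 18.3% to 20.5% to the protein-coding Pck1-201. Pck1-202 differs from it by keeping intron 9, of 103 bases (chr2:172999882-172999984), and by a slightly later start. The shares were as steady in D_C (79.4% ± 0.7, SD, n = 4) as in ND_C (79.5% ± 1.0, SD, n = 4). They are estimates that divide reads between 2 nearly identical models, of 2728 and 2661 bases. Read coverage of the intron was not examined, so the shares do not show how much Pck1 RNA kept it. Fbp1 was assigned to Fbp1-201 for at least 99.3% of counts, and G6pc1 had 1 counted transcript. Slc37a4 was split unsteadily, Slc37a4-201 taking 14.8% to 95.3%.

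For Pcx, the transcripts from the distal start (Pcx-204 and Pcx-201) took 25.2% to 89.6% of counts, and Pcx-202 from the proximal start took 10.2% to 74.6%. In untreated kidneys the mean distal share was 72.8% ± 16.6 (SD, n = 4) in ND_C against 76.7% ± 15.7 (SD, n = 4) in D_C. With B12 it came to 75.0% ± 6.9 (SD, n = 4) in ND_B12 against 56.0% ± 24.7 (SD, n = 4) in D_B12. The groups overlapped, D_B12 3 had the lowest distal share at 25.2%, and no group was set apart. The shares are estimates that divide reads between models of similar length, Pcx-204 of 4198 and Pcx-202 of 4162 bases. Reads over each start were not examined, so the shares do not show how much each start was used. The distal start is the one whose stretch held CCAAT 3 times, and any link of motif to share was not tested.

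**Figure D5:**
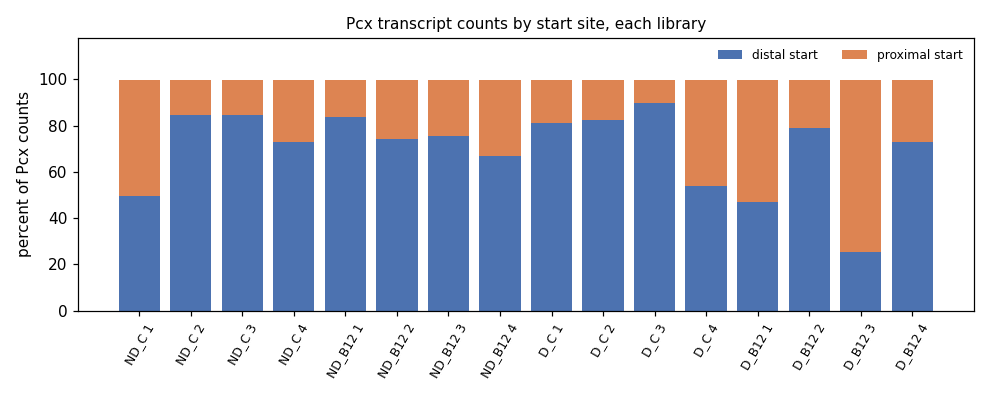
Percent of Pcx transcript counts (y axis) assigned to the distal start (Pcx-204 and Pcx-201) and to the proximal start (Pcx-202), stacked, in each of 16 libraries (x axis). The distal share runs from 25.2% in D_B12 3 to 89.6% in D_C 3 and spreads widely within groups.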

How the data were processed

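Kidney total RNA was sequenced from 16 mice, 4 per labelled group. The authors aligned reads to GRCm39 with STAR and estimated gene and transcript abundances with StringTie against GENCODE vM35. The deposited tables hold these as whole-number expected counts, not normalized, and every column was matched to a sample by its library number. Demultiplexing used bcl2fastq 2.20.0, per the submitters' processing notes. Spliced reads took their strand from intron motifs, and a library strand setting is not given in the sources used here.

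Genes with at least 100 counts in all were tested with edgeR 4.0.16 (R 4.3.3): TMM scaling, quasi-likelihood F-test on 1 fit over the 4 groups (12 residual degrees of freedom), Benjamini-Hochberg adjustment over 25408 genes, calls at 0.05. The common biological coefficient of variation was 0.201. DESeq2 1.42.0, the tool of the study, was an alternative, as were upper-quartile scaling, other count filters, a block for replicate number, the compared groups alone, a covariate for date, each library left out, and ND_B12 4 and D_C 1 left out. Normalized counts are divided by median-of-ratios size factors. The fits were tested on simulated data. TPM used GENCODE vM39 lengths, which covered at least 99.8% of transcript counts. Single values were tested by exact permutation, two-sided. The p-values measure the spread between kidneys, each taken as 1 mouse, with counting error included. Counting error weighs more on Pck2, at a mean of 948 counts per library, than on the other members, which had more counts.

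The named genes are the 6 members, the 3 genes of mean CPM at least 5 most correlated with each, and genes of the fixed lists that passed a test, except that some genes are not reported here. Regulators named without a call, and genes named for the 14-library setting, were chosen after their values were seen. The members and lists were chosen with earlier results of these data known.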

Additional observations from a re-analysis of the deposited data

Results flagged for a closer look

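Single libraries stood apart from the other 3 of their labelled group in 5 of 32 groups checked (6 members and 2 ratios in 4 groups), where the gap to the nearest library exceeded Dixon's 95% critical value for 4 samples. Chance flags about 1 in 20 such groups. Pck1 was flagged in D_C, where D_C 2 had a normalized count of 598731, with a gap of 0.833 of the range, and so was the log2 ratio of Pck1 to Pcx in the same library, 3.58, with a gap of 0.965. The gene counts of Acot3, Uroc1, Cbr1, Cryl1 and Rragd were also highest in D_C 2, and the adipocyte markers summed to 506 there, within the range of the other libraries. Pck2 was flagged in D_C, with D_C 3 at 1190, and in D_B12, with D_B12 1 lowest at 853. Fbp1 was flagged in ND_B12, with ND_B12 4 highest at 87342. ND_B12 4 is 1 of the 2 libraries whose diabetes status differed from the label in the match to tabulated group means.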

How the results depend on the processing

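In D_C over ND_C, 1 member was called, 0 with no filter beyond 1 count, with date as a covariate, with the replicate block or with the compared groups alone, 2 without ND_B12 4 and D_C 1, and 0 to 1 without single libraries. In D_B12 over ND_B12, 0 were called and 1 by DESeq2. In the average over treatments, 0 were called, 1 by DESeq2, 2 without ND_B12 4 and D_C 1, and 0 to 1 without single libraries (1 without ND_B12 4 and 1 without D_B12 2). The cause was not tested. Replicate numbers do not pair the samples: 3 of 24 same-numbered pairs had r over 0.1 (median -0.01). The block moved the genes called from 209 to 25 in D_B12 over ND_B12, from 423 to 269 in D_C over ND_C and from 767 to 478 in the average, and called 147 where 0 had been called in the test of the difference. All genes called in D_C over ND_C and in the average were 423 and 767, 1637 and 1837 by DESeq2, 63 and 427 with no filter, 2 and 0 with date, and 2127 and 2531 without the 2 libraries.

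Member log2 fold changes of opposite sign were as follows. With date as a covariate, Fbp1 was -0.0094 in D_C over ND_C, -0.23 in D_B12 over ND_B12 and -0.12 in the average, Slc37a4 was -0.12 in D_C over ND_C and -0.31 in the average, and G6pc1 was -0.12 in D_B12 over D_C. Without ND_B12 4 and D_C 1, Pck2 was 0.054 and Slc37a4 0.061 in D_B12 over ND_B12, Fbp1 -0.034 in ND_B12 over ND_C, Pcx 0.0016 in D_C over ND_C and G6pc1 -0.021 in D_B12 over D_C. With upper-quartile scaling, Fbp1 was 0.0099 in D_B12 over D_C and Slc37a4 0.0021 in D_B12 over ND_B12, and with no filter Pck1 was -0.00016 in D_B12 over ND_B12. Without single libraries, values crossed 0 in D_B12 over ND_B12 for Pck1 (-0.16 to 0.15), Pck2 (-0.094 to 0.050), Fbp1 (-0.014 to 0.16) and Slc37a4 (-0.075 to 0.057), in D_B12 over D_C for Pck1 (-0.43 to 0.096), Fbp1 (-0.13 to 0.095), Pcx (-0.083 to 0.011), G6pc1 (-0.074 to 0.12) and Slc37a4 (-0.17 to 0.054), in ND_B12 over ND_C for Fbp1 (-0.032 to 0.12) and in the test of the difference for Fbp1 (-0.20 to 0.027). In the average, G6pc1, Pck1, Pck2 and Pcx kept their sign in every setting run, but Pck2 came to 0.010 with date as a covariate (edgeR adjusted p = 0.987) and Pck1 to 0.073 without D_C 2.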
